A study of Mus musculus with 10 samples.

Results

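The genes Gli1, Gli2, Gli3, Ptch1, Hhip and Smo are the receptors and transcription factors at the core of hedgehog signalling, and their signal was described in cultured mouse Wolffian ducts. The members were chosen by gene symbol: all 6 were found in the platform's annotation, each with 1 probe set (a set of short array probes summed into 1 value), out of 22206 probe sets, 19572 of them with a gene symbol. Wolffian ducts, the embryonic origin of the epididymis and vas deferens, were taken from embryos at 16.5 days post-coitum and kept at an air-liquid interface for 72 h. Total RNA was hybridised to Affymetrix arrays: 3 arrays of ducts in culture medium (vehicle), 4 of ducts with 0.5 µM SAG, an agonist of Smoothened, and 3 of ducts with 25 µM cyclopamine, an inhibitor of Smoothened. The genotype, the strain, and whether ducts were pooled could not be read from the labels, and the sample titles and source field name the tissue as pronephros. The series calls the samples biological replicates but does not say that they came from separate animals, so p-values measure the spread between these samples.

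Hedgehog ligands bind the receptor Ptch1, which in their absence holds the membrane protein Smo inactive. Once Smo is released, the zinc finger proteins Gli2 and Gli3 act less as repressors and more as activators, and Gli1, Ptch1 and Hhip are then transcribed as direct targets. Gli1 adds to the activation, while Ptch1 and Hhip, which captures ligand at the cell surface, restrain it; these genes are therefore called feedback targets below. Smo, Gli2 and Gli3 carry the signal whether or not the pathway is active and are called transducers. In the urogenital tract the ligand is typically made by epithelium and the response occurs in the surrounding mesenchyme.

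Promoter windows are shown for the members that responded, where one was held. Their response was read at the RNA level, and Gli binding to DNA was not measured. RefSeq windows of assembly GRCm38.p6, from 250 bases before to 50 after a start site, were held for 5 of the 6 members (all but Gli1). They were searched for GACCACCCA, the consensus bound by Gli proteins, and its reverse complement TGGGTGGTC. Capitals mark the stretch nearest to that consensus on either strand, or the first of several equally near: 6 of 9 bases matched in Ptch1 (chr13:63565686-63565985, minus strand), 7 in Hhip (chr8:80057959-80058258, minus strand) and 7 in Gli2 (chr1:119053570-119053869, minus strand).
Ptch1: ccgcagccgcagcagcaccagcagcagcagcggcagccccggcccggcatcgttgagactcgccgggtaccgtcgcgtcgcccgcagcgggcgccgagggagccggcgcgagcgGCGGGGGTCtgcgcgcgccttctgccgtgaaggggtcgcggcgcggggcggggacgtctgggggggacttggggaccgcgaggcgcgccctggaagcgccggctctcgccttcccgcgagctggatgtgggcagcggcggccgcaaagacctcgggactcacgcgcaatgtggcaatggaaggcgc
Hhip: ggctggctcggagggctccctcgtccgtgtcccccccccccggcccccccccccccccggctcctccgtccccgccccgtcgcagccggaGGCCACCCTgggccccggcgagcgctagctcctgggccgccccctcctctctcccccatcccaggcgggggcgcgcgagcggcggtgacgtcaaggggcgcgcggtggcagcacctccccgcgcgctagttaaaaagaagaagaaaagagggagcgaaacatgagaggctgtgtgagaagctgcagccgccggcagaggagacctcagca
Gli2: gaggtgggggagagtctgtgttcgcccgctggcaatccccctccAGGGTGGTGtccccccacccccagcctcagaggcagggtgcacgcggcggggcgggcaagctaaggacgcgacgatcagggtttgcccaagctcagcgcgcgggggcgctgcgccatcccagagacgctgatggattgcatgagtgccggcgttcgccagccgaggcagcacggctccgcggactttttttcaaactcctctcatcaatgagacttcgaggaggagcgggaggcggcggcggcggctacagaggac
The Ptch1 window held 4 equally near stretches, some of which may overlap, that of Gli2 held 2 and that of Hhip 1. The exact consensus was found in 0 of the 5 windows and in 0.253% of 32851 windows in the table. Allowing 2 mismatches, it was found in 3 of the 5 (Hhip, Gli2 and Smo) and in 58.3% of all windows. The windows of Ptch1, Hhip and Gli2 held 76.3%, 73.7% and 67.3% G and C, against a median of 52.7% over the table. These letters are a description of short windows only.

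The array values are log2 signals, so a difference of 1 is a doubling. Signals of different genes come from different probes and were not compared with each other. Array medians lay between 7.55 and 7.70. On the second principal component (16.6% of the variance) cyclopamine replicate 2 stood at -51.7, against 13.6 and 13.0 for the other cyclopamine arrays, so changes with cyclopamine are also given without it. Defining genes of the Wolffian duct epithelium were read on the same arrays. In vehicle the mean signals were 11.90 for the nephric transcription factor Pax8, 12.40 for Emx2, 7.11 for Lhx1 and 14.37 for the epithelial cadherin Cdh1, and 16.21 for the mesenchymal collagen gene Col1a1. Since levels of different probes cannot be ranked and the arrays' background is unknown, these signals do not settle which markers were present.

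Gli1, the transcription factor that is itself induced by the pathway, had signals of 12.63, 11.67 and 11.43 on the 3 vehicle arrays. With SAG the 4 arrays read 13.41, 13.41, 13.61 and 13.24. With cyclopamine the signals were 4.56, 5.37 and 4.99. The 3 groups did not overlap, the SAG arrays lay close together (SD 0.15, against 0.63 in vehicle), and the cyclopamine mean was 4.98. Ptch1, the receptor, read 14.49, 14.58 and 13.95 in vehicle. Its SAG arrays stood at 15.40, 16.28, 16.15 and 15.74. Its cyclopamine arrays stood at 10.25, 10.16 and 10.23. Again no group overlapped another, and the cyclopamine arrays were within 0.10 of each other. Hhip, the ligand-binding antagonist, read 12.08, 12.67 and 11.09 in vehicle. On the SAG arrays its signals were 16.01, 16.81, 16.54 and 16.60. On the cyclopamine arrays they were 6.21, 6.12 and 5.66. All 3 groups were separate, and the vehicle arrays were the most spread (SD 0.80, against 0.34 with SAG and 0.30 with cyclopamine).

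Vehicle replicate 3 had the lowest vehicle signal for each of the feedback targets. On the same array Gli2, Gli3 and Smo had their highest vehicle signal.

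Gli2, which carries most of the activator function, read 10.56, 10.37 and 10.71 in vehicle. Its SAG signals were 11.26, 11.28, 11.15 and 10.70. Its cyclopamine signals were 9.01, 9.85 and 8.71. The cyclopamine arrays all lay under the vehicle arrays, while SAG replicate 4 lay within the vehicle range. Gli3, the main source of repressor, read 12.09, 11.89 and 12.23 in vehicle. With SAG it read 12.39, 11.98, 11.87 and 11.28. With cyclopamine it read 11.68, 12.35 and 11.77. The 3 groups overlapped, and the SAG and cyclopamine groups each reached both above and below the vehicle arrays. Smo, the transducer that both compounds bind, read 10.05, 10.33 and 10.35 in vehicle. SAG arrays gave 10.46, 11.04, 10.64 and 10.29. Cyclopamine arrays gave 10.26, 10.17 and 9.63. The vehicle range overlapped with both treated groups, though every SAG array was above every cyclopamine array.

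**Figure D1:**
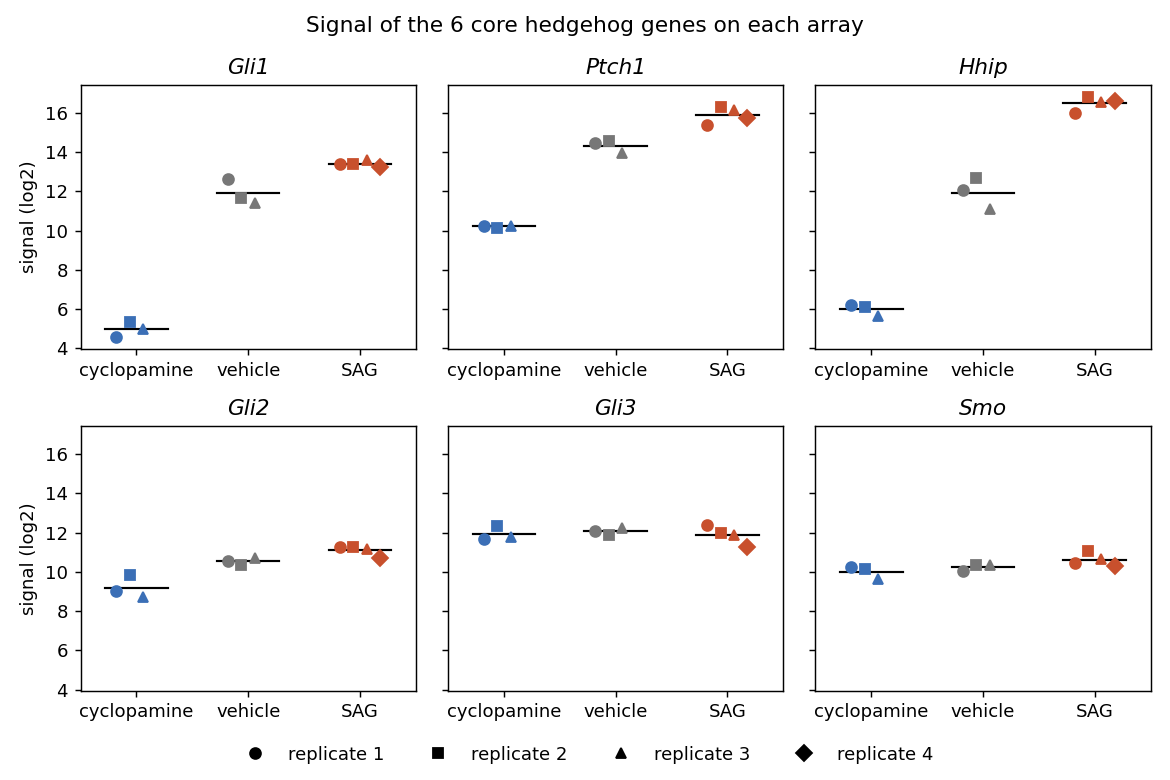
Log2 signal of each gene on each of the 10 arrays (points, shaped by replicate number) with the group mean (bar), by treatment. Gli1, Ptch1 and Hhip form 3 separate levels, with cyclopamine means of 4.98, 10.21 and 5.99 and SAG means of 13.42, 15.90 and 16.49; the cyclopamine arrays of Gli2 lie below the others, and the groups of Gli3 overlap.

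Of all 22206 probe sets, 256 (1.15%) had every cyclopamine array below every vehicle array and every vehicle array below every SAG array, and Gli1, Ptch1 and Hhip were among them. Of the transducers, none had that order without overlap. Taken singly, SAG arrays all above vehicle arrays were found for 6.25% of probe sets, and cyclopamine arrays all below vehicle arrays, as for Gli2, for 11.9%.

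Stimulation with SAG was compared with vehicle to ask how far the pathway could be raised above its level in culture. Changes were tested with limma, a linear model fitted to all probe sets and all 10 arrays, and p-values were adjusted by the Benjamini-Hochberg method across all 22206 probe sets. All 3 feedback targets rose and none of the transducers passed the adjusted threshold of 0.05, against 0.45% of all probe sets called higher. None of the transducers had an unadjusted p under 0.05 either. Hhip rose by 4.55 ± 0.33 (SE, 4 against 3 arrays), the second largest change of all probe sets in this fit (limma adjusted p = 0.000275). Ptch1 rose by 1.56 ± 0.22 (limma adjusted p = 0.0120) and Gli1 by 1.51 ± 0.27 (limma adjusted p = 0.0374). The rise of Hhip exceeded the 95% intervals of both (1.07 to 2.05 for Ptch1 and 0.90 to 2.11 for Gli1), but the difference between genes was not tested. Gli1 lost its call in 7 of 10 fits with 1 array left out, namely each SAG array (adjusted p 0.0708 to 0.103), vehicle replicate 2 (0.204), vehicle replicate 3 (0.113) and cyclopamine replicate 3 (0.0530), while its change stayed between 1.27 and 1.87. Ptch1 and Hhip kept theirs in all 10. With unmoderated variances Gli1 (adjusted p = 0.208) and Ptch1 (0.109) did not pass.

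For the transducers the intervals bound how large a change with SAG could be. Gli2 stood at 0.55 (95% interval -0.0056 to 1.10), Smo at 0.36 (-0.095 to 0.82) and Gli3 at -0.19 (-0.74 to 0.37). A doubling lies outside the intervals of Smo and Gli3 and inside that of Gli2. SAG replicate 4 was the lowest SAG array for Gli1, Gli2, Gli3 and Smo, and without it the change of Gli3 was 0.015 in place of -0.19.

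Cyclopamine was compared with vehicle to ask how far each gene's signal changed in ducts cultured with the inhibitor. All 3 feedback targets and Gli2 fell, 4 of 6 members, against 2.95% of all probe sets called lower. Gli1 was 122-fold lower (-6.93 ± 0.29, 3 against 3 arrays, limma adjusted p = 1.57e-06), the largest change of any probe set in this fit. Hhip was 61.8-fold lower (-5.95 ± 0.35, limma adjusted p = 1.15e-05), the second largest, and Ptch1 was 17.4-fold lower (-4.12 ± 0.24, limma adjusted p = 9.85e-06). Without cyclopamine replicate 2 these changes were -7.13, -6.01 and -4.10. The background of these arrays is unknown, so how near the cyclopamine signals lay to it cannot be told. For scale, the lower quartile of all probe set means was 5.19 and the median 7.62. The cyclopamine means were 4.98 for Gli1, 5.99 for Hhip and 10.21 for Ptch1.

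Gli2 fell 2.56-fold with cyclopamine (-1.36 ± 0.27, limma adjusted p = 0.0177). Gli3 (-0.13, 95% interval -0.72 to 0.46) and Smo (-0.22, -0.71 to 0.27) did not pass, and neither had an unadjusted p under 0.05. The Gli2 change was -1.69 without cyclopamine replicate 2, the array with the highest Gli2 signal of its group. Its call ended without vehicle replicate 1 (limma adjusted p = 0.0654), vehicle replicate 3 (0.0637), cyclopamine replicate 1 (0.0580) or cyclopamine replicate 3 (0.0545), and with only the compared groups in the fit (0.0610) or unmoderated variances (0.0746). Halving of Gli3 or Smo lies outside both intervals, and whether Gli2 and Gli3 differ in their change was not tested.

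**Figure D2:**
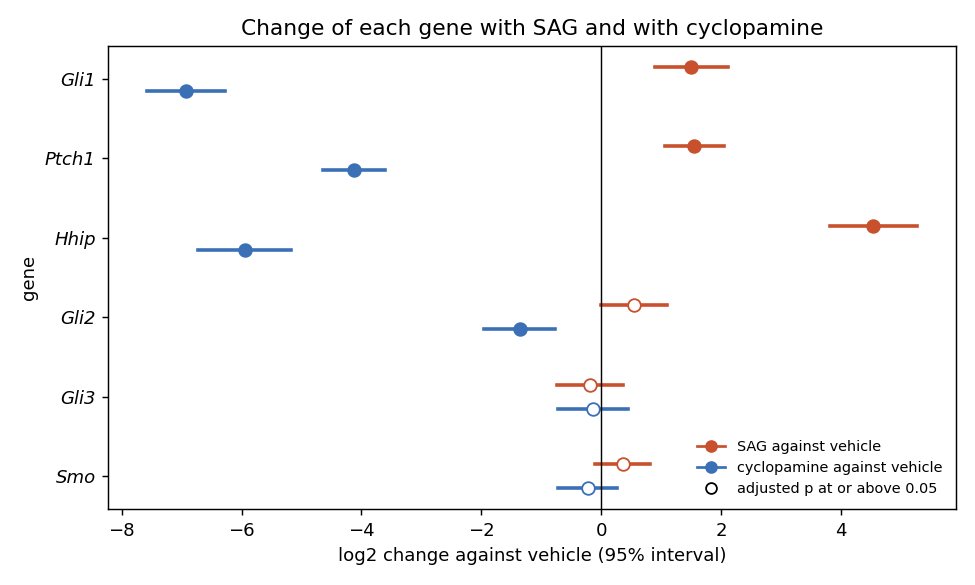
Log2 change of each gene against vehicle with SAG and with cyclopamine (points) and its 95% interval from limma (lines); open points did not pass an adjusted p of 0.05. The cyclopamine points of Gli1 (-6.93), Hhip (-5.95) and Ptch1 (-4.12) lie farther from 0 than their SAG points (1.51, 4.55 and 1.56), and the intervals of Gli3 and Smo cross 0.

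Set against each other, the compounds spanned the range over which each gene was driven. Hhip spanned 10.50 log2 units between the cyclopamine and SAG means (± 0.33, limma adjusted p = 9.73e-08), Gli1 8.44 ± 0.27 and Ptch1 5.68 ± 0.22 (limma adjusted p = 2.75e-07). Gli2 spanned 1.91 ± 0.25 (limma adjusted p = 0.000696), so 4 of 6 members were called, against 5.42% of all probe sets called higher. Smo stood at 0.59 ± 0.21, which missed the threshold (limma adjusted p = 0.106, unadjusted p = 0.0171), although its groups did not overlap, as held for 10.7% of all probe sets in that direction. Gli3 stood at -0.053 (95% interval -0.60 to 0.50), and at 0.16 without cyclopamine replicate 2. This comparison shares its arrays with the others and is no independent support for them.

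Vehicle cultures lay at different places within that span. Vehicle Gli1 was 35.2% of its SAG level on the linear scale and vehicle Ptch1 34.0%, while vehicle Hhip was 4.28%. With cyclopamine these levels were 0.288%, 1.95% and 0.0692% of the SAG level. On the log2 scale, the step from vehicle to SAG made up 17.9% of the span for Gli1, 27.4% for Ptch1 and 43.3% for Hhip. Whether the step up and the step down differed in size was tested as the sum of the SAG and cyclopamine changes, which on the log2 scale is 0 for equal steps and negative where the fall is larger. The sum was -5.43 ± 0.50 for Gli1 (limma adjusted p = 0.00220) and -2.57 ± 0.40 for Ptch1 (limma adjusted p = 0.0272), so both fell by more than they rose on the log2 scale; on the linear scale the order turns, since the vehicle level of each lay nearer to its cyclopamine level than to its SAG level. The log2 call was made for 0.27% of all probe sets in that direction. For Hhip it was -1.40 ± 0.60 and missed the threshold (limma adjusted p = 0.432), as for Gli2 (-0.81 ± 0.46), Gli3 (-0.32 ± 0.45) and Smo (0.14 ± 0.38). The Ptch1 call ended in 5 of 10 fits with 1 array left out: vehicle replicate 1 (adjusted p = 0.179) or 2 (0.211), SAG replicate 4 (0.0683) and cyclopamine replicate 1 (0.0588) or 3 (0.0541). The Gli1 call held in all 10. With unmoderated variances neither passed (adjusted p = 0.0746 for Gli1 and 0.145 for Ptch1).

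The other genes of the pathway gave a background for the members. The gene lists were chosen with earlier results of these data known, so their counts beside the shares are a description and no independent support. Of 52 measured genes, 4 rose and 0 fell with SAG by limma at the adjusted threshold, against 0.45% of all probe sets called higher and 0.279% called lower. At an unadjusted p under 0.05, 6 had a positive and 4 a negative change with SAG. With cyclopamine 1 rose and 5 fell, against 2.17% and 2.95% of all probe sets, and between the compounds 9 were higher with SAG and 5 lower, against 5.42% and 5.92%. The median change was -0.017 with SAG and -0.18 with cyclopamine, against 0.010 and 0.017 over all probe sets.

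Among the 10 genes of ligand production and release, 1 rose with SAG, 1 fell with cyclopamine and 9 did not pass in each case. Of all probe sets, 0.45% were called higher with SAG and 2.95% lower with cyclopamine. Hhat, which attaches palmitate to the ligand, rose with SAG (1.01 ± 0.17, limma adjusted p = 0.0256) and stood at -0.44 ± 0.18 with cyclopamine. Disp2, a relative of the ligand-release protein Disp1, fell with cyclopamine (-1.71 ± 0.43, limma adjusted p = 0.0474). The agonist moved Disp2 in the same direction (-1.20 ± 0.40), with every SAG array below every vehicle array. That SAG change was not called after adjustment (limma unadjusted p = 0.0131, adjusted p = 0.279). The SAG call of Hhat ended in 5 of 10 fits with 1 array left out (vehicle replicates 2 and 3 and SAG replicates 2, 3 and 4, adjusted p up to 0.141). The cyclopamine call of Disp2 ended in 7 (all but SAG replicates 2 and 4 and cyclopamine replicate 1, up to 0.151). Between the compounds Hhat was higher with SAG (1.45 ± 0.17, limma adjusted p = 0.000340), a call that held with any array left out. Shh, the ligand of the duct epithelium, was at -0.94 with SAG and 0.47 with cyclopamine, and neither passed. It was lower with SAG than with cyclopamine (-1.40, limma adjusted p = 0.0196), a call lost when SAG replicate 3, SAG replicate 4, cyclopamine replicate 1 or cyclopamine replicate 3 was left out (up to 0.0837). Scube2, which helps release the ligand, was also lower with SAG than with cyclopamine (-1.42, limma adjusted p = 0.0324), a call that ended without cyclopamine replicate 1 or any of the SAG arrays (up to 0.0790).

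Of the 5 measured co-receptors and ligand-binding proteins, Gpc3, a glypican that competes with Ptch1 for ligand, rose with SAG (1.22 ± 0.16, limma adjusted p = 0.00841). It fell by a like amount with cyclopamine (-1.22 ± 0.17, limma adjusted p = 0.00383), and both calls held with any array left out. Lrp2, a large endocytic receptor of epithelia, rose with cyclopamine (1.51 ± 0.38, limma adjusted p = 0.0456), a call that ended in 8 of 10 such fits (all but cyclopamine replicates 1 and 2, adjusted p up to 0.130). The ligand-binding co-receptors went opposite ways between the compounds: Boc was higher with SAG than with cyclopamine (1.18 ± 0.24, limma adjusted p = 0.00889) and Cdon lower (-0.95 ± 0.19, limma adjusted p = 0.00849). Gas1 was at -0.28 with SAG and 0.50 with cyclopamine.

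Downstream of Smo, in the cytoplasm and the primary cilium, 0 of 19 measured genes passed in any comparison by limma. Over all probe sets, 0.45% were called higher and 0.279% lower with SAG, 2.17% and 2.95% with cyclopamine, and 5.42% and 5.92% between the compounds. Against vehicle, 0 calls in so short a list lies near these shares. At an unadjusted p under 0.05 there were 1, 2 and 2 of the 19 genes with SAG, with cyclopamine and between the compounds. Their changes ran from -0.47 to 0.15 with SAG and from -0.54 to 0.42 with cyclopamine. Sufu, the protein that retains Gli factors, was at -0.023 and 0.13, and the kinesin Kif7 at -0.044 and -0.19. The vehicle signal of Kif7 (5.40) was near the lower quartile of all probe set means (5.19). With the background unknown, whether a change of Kif7 could be read cannot be told.

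Among 18 measured genes known as hedgehog targets in other tissues, 2 rose with SAG and 3 fell with cyclopamine. The shares of all probe sets called in those directions were 0.45% and 2.95%. The forkhead factor Foxc2 rose with SAG (1.68 ± 0.23, limma adjusted p = 0.0106; adjusted p = 0.0676 without vehicle replicate 2). Foxf1, another forkhead factor of mesenchyme, was higher with SAG by 1.17 ± 0.21 (limma adjusted p = 0.0351) and fell by 1.12 with cyclopamine (limma adjusted p = 0.0183). Its SAG call ended in 7 of 10 fits with 1 array left out (all but vehicle replicate 1 and cyclopamine replicates 2 and 3, adjusted p up to 0.134). Its cyclopamine call ended without vehicle replicate 1 or 2 (up to 0.0676). Between the compounds Foxf1 was higher with SAG (2.29 ± 0.21, limma adjusted p = 8.1e-05), a call that held with any array left out. Bmp4, a secreted growth factor (-2.07 ± 0.33, limma adjusted p = 0.00669), and the survival gene Bcl2 (-1.28 ± 0.20, limma adjusted p = 0.00612) fell with cyclopamine, and with SAG stood at 0.31 and -0.28. Between the compounds 6 of the 18 were higher with SAG and 1 lower, against 5.42% and 5.92% of all probe sets. At a limma unadjusted p under 0.05, 9 were higher and 3 lower. Sfrp1, a Wnt antagonist (0.91, limma adjusted p = 0.0213), and the small GTPase gene Rab34 (0.72, limma adjusted p = 0.00682) were higher with SAG than with cyclopamine. The Sfrp1 call ended without cyclopamine replicate 1 or 3 (adjusted p up to 0.0873). Tbx3 was lower with SAG than with cyclopamine (-0.78, limma adjusted p = 0.0415), a call lost in 7 of 10 fits with 1 array left out (up to 0.121). Gremlin (Grem1) was at 1.21 with SAG and 1.56 with cyclopamine, and the forkhead gene Foxl1 at 0.38 and 0.20, with neither passing. Of zinc finger genes related to the Gli family, Glis3 fell with SAG (-1.05 ± 0.21, limma adjusted p = 0.0494). That call ended in 8 of 10 fits with 1 array left out (all but SAG replicate 3 and cyclopamine replicate 2, adjusted p up to 0.200). Glis3 was also lower with SAG than with cyclopamine (-1.70 ± 0.21, limma adjusted p = 0.000410), a call that held with any array left out. The other 6 did not pass against vehicle.

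**Figure D3:**
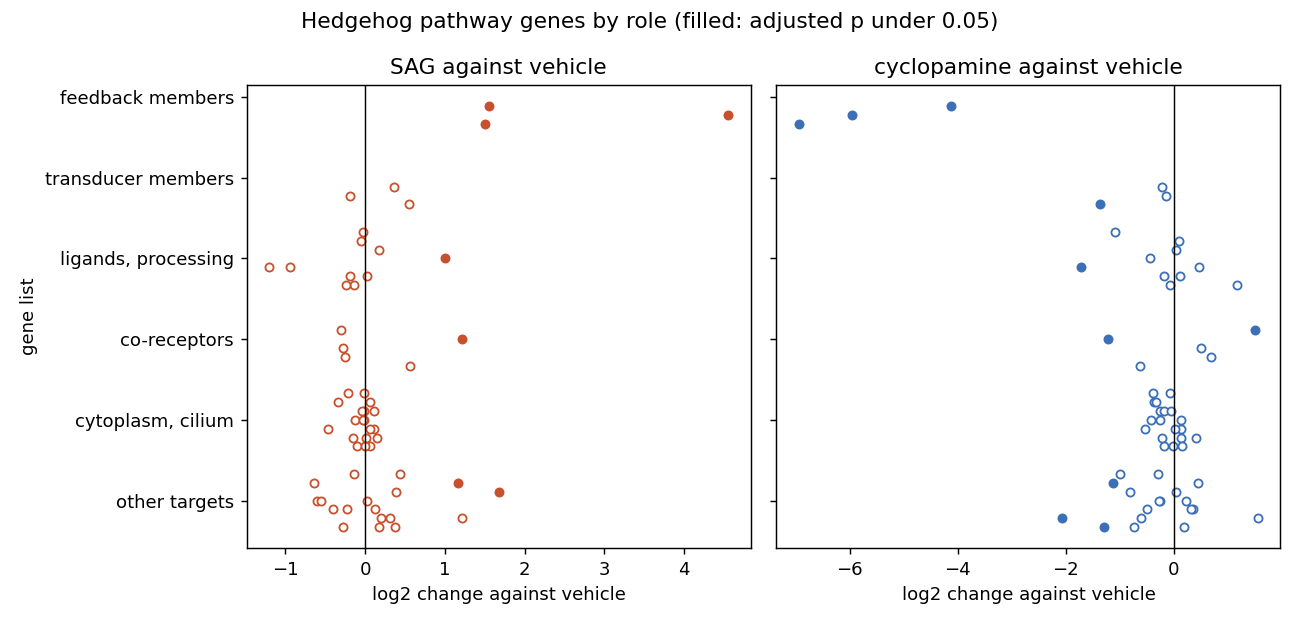
Log2 change against vehicle (x axis) of each measured hedgehog pathway gene, grouped by role, with SAG (left) and cyclopamine (right); filled points passed an adjusted p of 0.05. Changes of the 19 genes of the cytoplasm and cilium stay between -0.47 and 0.15 with SAG and between -0.54 and 0.42 with cyclopamine, while the feedback targets reach 4.55 and -6.93.

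Marker lists of cell types moved with the treatments, and the members were read from whole ducts. The mesenchyme list (14 genes measured) had list means of 14.56 to 14.61 in vehicle, 14.84 to 14.94 with SAG and 13.33 to 13.73 with cyclopamine. With cyclopamine 8 of its 14 genes fell and 6 did not pass (median -0.69), and with SAG 0 passed by limma (median 0.25, highest change 1.29), where 4 had a positive change at an unadjusted p under 0.05. The smooth muscle list was at 11.90 to 12.38, 11.65 to 11.82 and 9.38 to 9.84 in vehicle, SAG and cyclopamine, and 10 of its 12 genes fell with cyclopamine. The duct epithelium list mean ran the other way, at 10.49 to 11.33, 9.51 to 10.05 and 11.56 to 12.16. Of its 14 genes, 2 were called lower with SAG and 7 higher with cyclopamine. With SAG all 14 changes were negative, 11 of them at a limma unadjusted p under 0.05. With cyclopamine 12 had a positive change and 2 a negative one, Lhx1 (-0.90) and Ret (-1.55). Like the rest of the list, both were lower with SAG (-1.05 and -1.08), and none of these 4 changes passed. Over all probe sets, 0.45% were called higher and 0.279% lower with SAG, and 2.17% and 2.95% with cyclopamine. The endothelium list was at 9.43 to 10.49, 10.09 to 10.54 and 8.10 to 9.78, and cyclopamine replicate 2 was its lowest array. Of 10 cell cycle genes 5 fell with cyclopamine (median -0.62), while 0 of 7 macrophage genes passed against vehicle by limma (with cyclopamine 2 were higher and 1 lower at an unadjusted p under 0.05, and with SAG 0). In bulk tissue fewer cells of a type and less RNA per cell cannot be told apart.

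The falls of Gli1, Hhip and Ptch1 with cyclopamine (-6.93, -5.95 and -4.12) were larger than that of every mesenchyme gene measured, the largest of which was -3.06. Set against the smooth muscle list they were not all larger: Actg2, a smooth muscle actin (-5.54, limma adjusted p = 0.000641), and Cnn1, a calponin (-5.04, limma adjusted p = 1.56e-06), fell by more than Ptch1. The part of cell make-up in the falls of the feedback targets and of Gli2 was not tested. The fall of Gli2 (-1.36) lay within the range of the mesenchyme genes (-3.06 to -0.23). Cyclopamine replicate 2 had both the highest Gli2 signal and the highest mesenchyme mean of its group, and also the highest Gli1 and Gli3 signals. Vehicle replicate 3 was likewise highest of its group for Gli2 and the mesenchyme mean. The vehicle mesenchyme means lay close together, however (14.56, 14.60 and 14.61). Vehicle replicate 2, at 14.60, had the lowest Gli2 signal of its group (10.37). SAG replicate 4 had the highest mesenchyme mean (14.94) and the lowest Gli2 signal (10.70) of its group. SAG replicate 1 had the lowest mesenchyme mean (14.84), with a Gli2 signal of 11.26. Gli3, at -0.13, lay nearer to 0 than each of the mesenchyme genes.

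**Figure D4:**
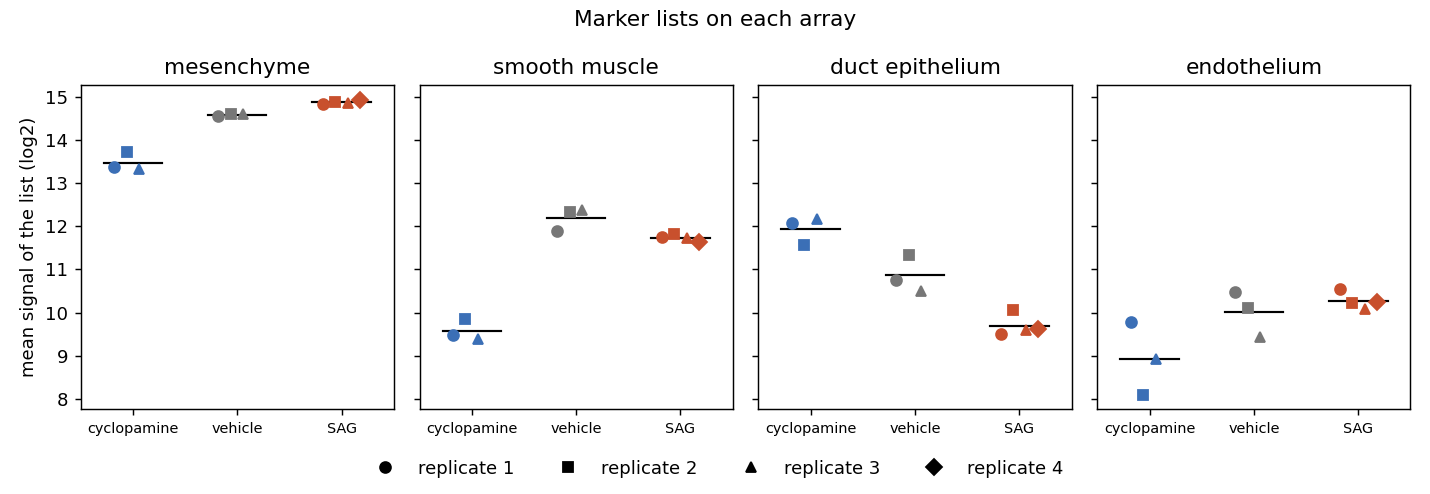
Mean log2 signal over the measured genes of 4 marker lists on each array (points, shaped by replicate number), with group means (bars), by treatment. The mesenchyme and smooth muscle lists are lowest with cyclopamine (13.33 to 13.73 and 9.38 to 9.84), where the duct epithelium list is highest (11.56 to 12.16).

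Genes with the most similar profile over the 10 arrays were found by Pearson correlation among 1808 named genes whose group means spanned at least 1 log2 unit. The arrays fall into 3 treatment groups, so these values mostly reflect group means and carry no test. Genes picked in this way will tend to pass the same comparisons on the same arrays. Their changes and calls, also with arrays left out, are therefore a description and no separate support. Nearest to Gli1 were Wfdc1 (r = 0.989), Tshz2 (0.987), Pltp (0.987) and Pdlim3 (0.986). Wfdc1, a secreted protease inhibitor, fell with cyclopamine (-4.32 ± 0.27, limma adjusted p = 1.36e-05) and stood at 0.85 ± 0.25 with SAG. Pltp, phospholipid transfer protein, was at -2.72 and 0.57. Nearest to Ptch1 were Pi15 (0.991), Pltp (0.989), Artn (0.988) and Pakap (0.988). Artn, a ligand of the GDNF family, fell with cyclopamine (-2.53 ± 0.21, limma adjusted p = 0.000121) and rose with SAG (1.02 ± 0.19, limma adjusted p = 0.0436), the latter ending in 8 of 10 fits with 1 array left out (all but SAG replicate 4 and cyclopamine replicate 2, adjusted p up to 0.209).

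Nearest to Hhip were C1qtnf7 (0.992), Crispld1 (0.991), Timp3 (0.989) and Ldb2 (0.988). Crispld1, a secreted protein, rose by 1.97 ± 0.22 with SAG and fell by 2.96 with cyclopamine, and the metalloproteinase inhibitor gene Timp3 stood at 1.46 ± 0.21 and -1.46 ± 0.22. C1qtnf7, Crispld1 and Timp3 passed in both comparisons with any array left out (highest limma adjusted p 0.0438, for Timp3 with SAG). Nearest to Gli2 were Lsp1 (0.982), Fzd1 (0.978), Fblim1 (0.976) and Gab2 (0.976), which fell with cyclopamine by 1.06, 1.12, 1.26 and 0.75 and did not pass with SAG. Among these falls the Fblim1 call held with any array left out. The Lsp1 call was lost when replicate 1 or 3 of vehicle or of cyclopamine was left out (adjusted p up to 0.0937), the Fzd1 call when vehicle replicate 1, vehicle replicate 2, cyclopamine replicate 1 or cyclopamine replicate 3 was (0.0619), and the Gab2 call in 7 of 10 fits (all but SAG replicates 1 and 4 and cyclopamine replicate 2, up to 0.130). Among themselves Gli1, Ptch1 and Hhip correlated at 0.955 to 0.987 and Gli2 with them at 0.912 to 0.933. Smo lay at 0.612 to 0.713 with the feedback targets and Gli3 at -0.11 to 0.025, over the same 10 arrays.

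In all, 40 probe sets (0.18%) were called both higher with SAG and lower with cyclopamine, and Gli1, Ptch1 and Hhip were among them, as were Foxf1 and Gpc3. The comparisons share the vehicle arrays, so that overlap is not independent. Gli2, Gli3 and Smo were not among them.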

How the data were processed

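Values were the authors' deposited log2 signals of Affymetrix arrays, 1 for each of 22206 probe sets on 10 arrays; the log2 scale was inferred from their range. Per the labels' protocols, 100 ng of total RNA per sample, with an RNA integrity number of at least 7, was labelled with the GeneChip WT Plus kit. The sources used here give no summarization or normalization method, software or genome build. Scanner files were not used here, and probe-level background is unknown; the number of arrays limits the precision. Groups and replicate numbers came from the sample titles.

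Means per group were fitted to all probe sets with limma 3.58.1 in R 4.3.3 (lmFit, eBayes; 7 residual and 3.70 prior degrees of freedom; no filter); tests were two-sided and adjusted by Benjamini-Hochberg across all probe sets. Errors are moderated standard errors and intervals are 95% intervals. Each comparison was refitted under further scaling, filters, other variance estimates, a replicate block, and with arrays left out. The script was tested on simulated data with known changes.

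Genes were named from the platform's annotation table; several probe sets of a gene were represented by the one with the highest mean. Of 156 genes in the lists, 137 had a named probe set. Named genes were the members, pathway genes that passed (up to 6 a list by p, and Tbx3) with up to 2 that did not. The 4 nearest profiles of Gli1, Ptch1, Hhip and Gli2, and markers by signal, were also named. Gene groups came from textbook knowledge, and the members and lists were chosen with earlier results of these data known. Gli protein sequences were not analysed here.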

Additional observations from a re-analysis of the deposited data

How the results depend on the processing

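Of the tested changes of the 6 genes, those of Hhip kept their direction and side of the threshold in every setting tried. So did Gli1 and Ptch1 with cyclopamine, and Gli1, Ptch1 and Gli2 between the compounds. Gli2 with SAG, Gli3 with cyclopamine, and Smo with either compound and between them also kept both, without a call. The same held for the summed changes of Gli2 and Gli3. Results that changed in some setting were as follows. Same-numbered arrays of different groups did not deviate together (correlations of -0.19 to 0.24 over 9 pairs, 1 of them over 0.1; 2 of 10 arrays correlated best with their own number), so the numbers were not treated as pairs. With the replicate block, SAG against vehicle gave Gli1 1.57 (adjusted p = 0.181), Ptch1 1.61 (0.0785) and Gli3 0.015, with 1 member called higher, 0 other pathway genes higher, and 20 probe sets higher and 12 lower. With the block, cyclopamine against vehicle gave 242 and 411 probe sets and 0 pathway genes higher, SAG against cyclopamine gave Gli3 0.15, 803 probe sets lower and 2 pathway genes lower, and the summed change of Ptch1 was -2.52 (adjusted p = 0.149). With unmoderated variances, changes stayed at 1.51 for Gli1 and 1.56 for Ptch1 with SAG, -1.36 for Gli2 with cyclopamine, and -5.43 and -2.57 for the summed changes of Gli1 and Ptch1, and none passed (adjusted p 0.0746 to 0.208). Then SAG against vehicle left 1 member higher, 0 pathway genes higher, and 7 and 2 probe sets higher and lower; cyclopamine against vehicle left 191 and 377 probe sets and 0 and 3 pathway genes, and SAG against cyclopamine 2 pathway genes lower.

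With only the compared groups in the fit, Gli2 with cyclopamine was at -1.36 and did not pass (adjusted p = 0.0610). Higher and lower probe sets then numbered 151 and 145 with SAG and 198 and 368 with cyclopamine, pathway genes 0 and 3 with cyclopamine, and 3 pathway genes were lower between the compounds. Array weights gave 166 and 147 probe sets with SAG, and Gli3 at 0.034 between the compounds. An intensity-dependent prior gave 2 pathway genes higher with cyclopamine. At a threshold of 0.01, SAG called 1 member, 1 pathway gene, and 31 and 5 probe sets; cyclopamine 102 and 252 probe sets and 0 and 3 pathway genes; and the compounds against each other 621 and 682 probe sets and 2 pathway genes lower. At 0.1, SAG called 164 and 152 probe sets, cyclopamine 836 and 1021 with 2 pathway genes higher, and between the compounds 14 pathway genes were higher. Without SAG replicate 1 and cyclopamine replicate 2, SAG called 169 and 142 probe sets and cyclopamine 761 and 830. The cause of these shifts was not tested.

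With 1 array left out, changes with SAG ranged from 1.27 to 1.87 (Gli1), 1.36 to 1.72 (Ptch1), 4.12 to 4.91 (Hhip), 0.46 to 0.68 (Gli2), -0.35 to 0.015 (Gli3) and 0.22 to 0.47 (Smo). With cyclopamine they ranged from -7.17 to -6.57, -4.32 to -4.00, -6.38 to -5.59, -1.69 to -1.12, -0.34 to -0.0053 and -0.34 to -0.027 in the same order of genes. Between the compounds Gli3 ranged from -0.22 to 0.16. The summed change ranged from -5.90 to -4.71 for Gli1, -2.96 to -2.32 for Ptch1 and -0.052 to 0.34 for Smo. Counts of probe sets higher and lower ranged over 39 to 163 and 6 to 176 with SAG, and 153 to 698 and 332 to 773 with cyclopamine. Pathway genes ranged over 1 to 4 higher with SAG, 0 to 1 higher and 3 to 6 lower with cyclopamine, and 2 to 7 lower between the compounds. Signal over background, which limits how small a level can be read, is unknown here.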
